A study of Mus musculus with 6 samples.

Results

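The genes of dopamine and noradrenaline signalling were followed in brain tissue of male FVB mice (FVB/N background by the methods) at postnatal day 6. In these mice a human SRY transgene was either activated or silent. The set held 9 genes, chosen by name for their part in catecholamine synthesis (Th, Ddc and Dbh), breakdown (Maob), transport (Slc6a3 and Slc18a2), reception (Drd1a and Drd2) and neuron identity (Nr4a2). They were read by 10 of the 25697 probes of an Illumina MouseRef-8 v2.0 bead array, which together list 18138 gene symbols. Maob had 2 probes and the other genes 1 probe each.

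Both genotypes carried a single copy of the Signalox-hSRY transgene at the H11 locus on chromosome 11. In hSRY-OFF mice the transgene was not recombined, so that the ubiquitous CAG promoter drives the red fluorescent protein DsRed2 and SRY stays silent. In hSRY-ON mice Cre recombinase handed down by the oocyte of a Ddx4-Cre mother had removed DsRed2, which places FLAG-tagged human SRY and EGFP under the CAG promoter from the single-cell embryo onward. The hSRY-ON mice taken for the arrays did not themselves carry the Ddx4-Cre transgene. The 2 genotypes therefore differ in SRY, in the fluorescent protein and in the cross, and these cannot be told apart in a line made from 1 integration. The paper also reports slower growth, little suckling and smaller brains in hSRY-ON pups. The part of growth and feeding in the values below was not tested. Each genotype had 3 arrays, hybridized with RNA from separate samples, which the paper describes as biological triplicates. The labels mention no litter.

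Dopamine and noradrenaline are made from tyrosine. Tyrosine hydroxylase (Th) catalyses the first and limiting step to L-DOPA, DOPA decarboxylase (Ddc) turns this into dopamine, and dopamine beta-hydroxylase (Dbh) converts dopamine into noradrenaline in the neurons of the locus coeruleus and hindbrain. The vesicular transporter encoded by Slc18a2 loads the amines into synaptic vesicles, the dopamine transporter encoded by Slc6a3 recovers dopamine from the synapse, and monoamine oxidase B (Maob), found in astrocytes and serotonergic neurons, degrades it. Dopamine neurons sit mainly in the ventral midbrain, where the nuclear receptor Nr4a2 is needed for their formation, and project to the striatum, whose neurons carry the D1 and D2 receptors (Drd1a, now named Drd1, and Drd2). In RNA from brain tissue, fewer cells of a type and less RNA per cell cannot be told apart.

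The promoters were inspected first, because SRY is a transcription factor that binds DNA through its HMG box. RefSeq promoter windows on GRCm38.p6, from 250 bases before to 50 bases after a gene start, were at hand for 8 of the 9 genes in 10 windows, with 2 windows each for Ddc and Drd1a, and not for Maob. The core sequence bound by SRY and SOX proteins, searched as AACAAT on both strands, was found for 2 of the 8 genes, Ddc and Nr4a2, and in 10.7% of all 32851 promoter windows. The related core ACAAAG, which does not contain the first, was found in both windows of Ddc and in 18.7% of all windows. The cyclic AMP response element TGACGTCA, through which many neuronal genes respond to cyclic AMP, was found for Th and Slc18a2 and in 1.79% of all windows. The NR4A response element AAAGGTCA, the letters recognised by Nr4a2, was found in the other window of Ddc and in 1.51% of all windows. The windows of Dbh, Slc6a3, Drd1a and Drd2 held none of these letters, and a match is a description of the sequence only.

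The 3 windows below are those of the enzymes that begin the pathway and of the transcription factor of its neurons. Each is written 5′ to 3′ in the direction of the gene, with the matched letters in capitals, and positions are counted from the gene start. In the Th window, chr7:142899946-142900245 on the minus strand, the cyclic AMP response element begins at position -45. In the Ddc window, chr11:11890359-11890658 on the minus strand, the match to AACAAT lies at -154 and that to ACAAAG at -34, both on the opposite strand. In the Nr4a2 window, chr2:57123954-57124253 on the minus strand, the match to AACAAT lies at -234, also on the opposite strand.
Th: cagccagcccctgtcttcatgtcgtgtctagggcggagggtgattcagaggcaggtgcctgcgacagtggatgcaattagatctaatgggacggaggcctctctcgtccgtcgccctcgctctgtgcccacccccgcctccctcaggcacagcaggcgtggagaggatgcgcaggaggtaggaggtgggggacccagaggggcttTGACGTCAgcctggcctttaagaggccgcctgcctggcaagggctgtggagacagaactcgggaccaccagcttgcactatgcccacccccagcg
Ddc: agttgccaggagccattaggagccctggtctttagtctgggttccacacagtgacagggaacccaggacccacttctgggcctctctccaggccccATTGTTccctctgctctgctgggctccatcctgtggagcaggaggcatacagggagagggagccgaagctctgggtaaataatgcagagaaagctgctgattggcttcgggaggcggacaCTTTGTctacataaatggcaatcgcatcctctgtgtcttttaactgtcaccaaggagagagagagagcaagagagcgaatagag
Nr4a2: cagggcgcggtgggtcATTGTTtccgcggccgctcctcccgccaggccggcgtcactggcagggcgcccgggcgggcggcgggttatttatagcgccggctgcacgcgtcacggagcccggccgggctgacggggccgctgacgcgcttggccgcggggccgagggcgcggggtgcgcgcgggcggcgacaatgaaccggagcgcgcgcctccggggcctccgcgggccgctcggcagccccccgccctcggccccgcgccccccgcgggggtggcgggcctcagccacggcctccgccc

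Ddc lies on the same chromosome as the transgene. Its gene body, chr11:11814101-11898144, begins 8.55 Mb beyond Drg1 and 8.57 Mb beyond Eif4enif1, the genes that flank the H11 locus. The other 8 genes are on other chromosomes.

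The arrays were comparable in brightness, with a median signal intensity between 200.2 and 219.8 and 13816 to 14377 probes detected per array. A probe was taken as detected at a detection p-value under 0.05, that is when fewer than that share of negative-control beads were as bright. Signals are given below as normalized log2 values after background correction, and the groups are compared as log2 fold changes, hSRY-ON minus hSRY-OFF, with a 95% confidence interval. The first principal component of the 14215 tested probes, with 42.8% of the variance, separated the genotypes, and the second, with 18.5%, set hSRY-ON array 3 apart at -22.2 from the other arrays at 0.0453 to 8.92. Values without that array are therefore also given. Levels of different genes cannot be ranked on this array, since each probe has its own brightness.

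Of the 10 probes, 7 were detected on all 6 arrays, those of Th, Ddc, Slc6a3, Drd1a, Drd2 and Nr4a2 and the brighter probe of Maob. Probes for genes of dopamine synthesis, uptake and reception thus gave a signal above background at this age. The number of the 10 probes detected per array was 8, 7 and 7 in hSRY-OFF and 7, 8 and 8 in hSRY-ON. This was 7.33 ± 0.58 in hSRY-OFF and 7.67 ± 0.58 in hSRY-ON (SD, n = 3 per group), a difference smaller than the SD of either group (p = 1 in a two-sided exact permutation test, which cannot go below 0.1 here). At a stricter detection p-value of 0.01 the same number, 7, was detected on every array.

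**Figure D1:**
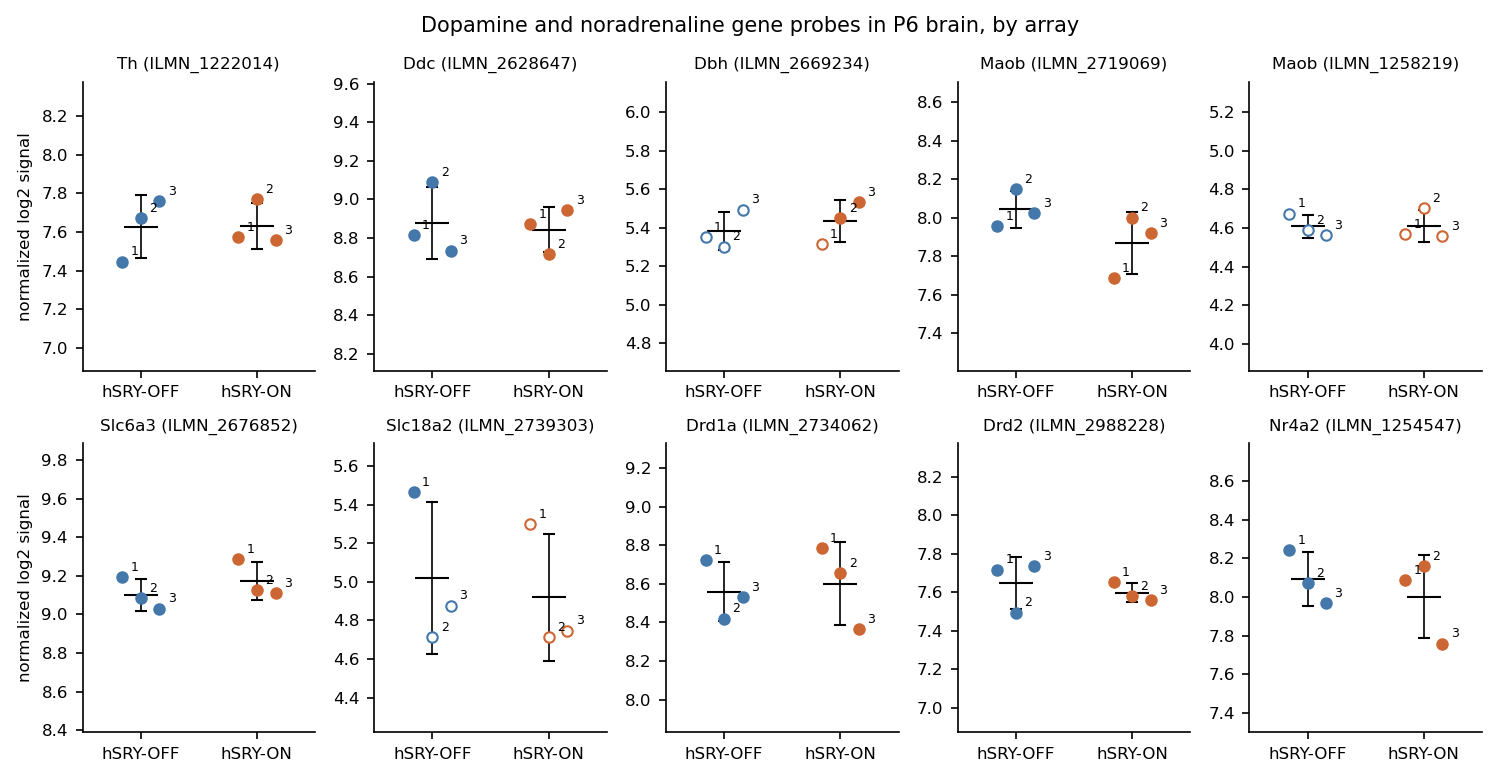
Normalized log2 signal (vertical axis, each panel spanning the same range of log2 units) of the 10 probes on the 3 hSRY-OFF (blue) and 3 hSRY-ON (orange) arrays, numbered by replicate; filled points were detected at a detection p-value under 0.05, open points were not, and the black bars are the mean and SD. The groups overlap in all 10 panels, and Slc18a2 shows the widest range, 0.75 from the lowest to the highest array.

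No gene of the set passed the test for a difference between the genotypes. Across the 7 tested probes the log2 fold changes lay between -0.17 (Maob) and 0.07 (Slc6a3) with a median of -0.04, and the median over all tested probes was 0.0048. In limma's moderated test with Benjamini-Hochberg adjustment over all tested probes, 0 of the 7 had an adjusted p under 0.05, where 2.17% of all tested probes had, and 0 of the 7 had an unadjusted p under 0.05, where 20.9% of all tested probes had. The adjusted p ranged from 0.401 to 0.984. In 0 of the 7 did the 3 hSRY-ON values lie wholly above or below the 3 hSRY-OFF values, where this held for 27.7% of all tested probes. The confidence intervals together ran from -0.43 to 0.36, so for each of these genes a change beyond 0.744-fold or 1.28-fold lay outside its interval. Single intervals were narrower than this joint span. Differences inside a gene's own interval could not be resolved with 3 arrays per group. Leaving out hSRY-ON array 3 again gave 0 calls, with log2 fold changes from -0.20 to 0.16 and a lowest adjusted p of 0.388.

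**Figure D2:**
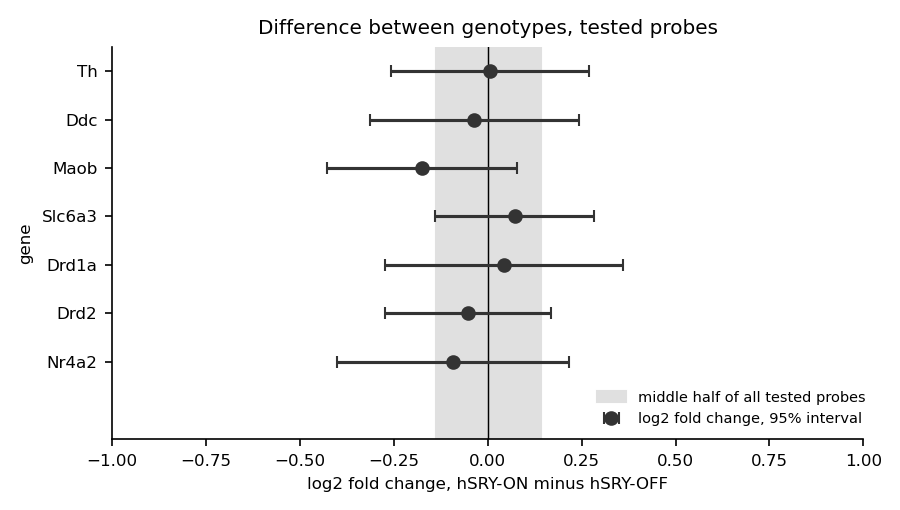
Log2 fold change between hSRY-ON and hSRY-OFF (horizontal axis) of the 7 tested probes, with bars for the 95% confidence interval of the limma fit; the grey band runs from the lower to the upper quartile of all tested probes, -0.14 to 0.14. All 7 intervals cross 0, and only the estimate for Maob lies outside the band.

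The genes of synthesis were examined first. The normalized log2 signal of Th, the gatekeeper of the pathway, was 7.45, 7.67 and 7.76 in hSRY-OFF and 7.57, 7.77 and 7.56 in hSRY-ON, given here and below in the order of the replicate numbers. The group means were nearly equal, 7.63 ± 0.16 and 7.63 ± 0.12 (SD, n = 3 here and below), and both the lowest array and the second highest belonged to hSRY-OFF. The log2 fold change was 0.0064 (SE 0.11, 95% confidence interval -0.26 to 0.27, adjusted p 0.984), and 2.81% of all tested probes had a smaller change in either direction. Its deposited intensity spanned 330.0 to 356.8 over the 6 arrays.

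Ddc, which serves dopamine, noradrenaline and serotonin neurons alike, read 8.81, 9.09 and 8.73 in hSRY-OFF and 8.87, 8.72 and 8.94 in hSRY-ON. Here the highest array was an hSRY-OFF array and the lowest an hSRY-ON array, with the rest mixed between them. The log2 fold change was -0.04 (SE 0.12, interval -0.31 to 0.24, adjusted p 0.897), from 8.88 ± 0.19 to 8.84 ± 0.12.

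Dbh, the step that is particular to noradrenaline neurons, lay at the edge of detection. Its signal intensity was 199.9, 186.7 and 191.7 in hSRY-OFF, with detection p-values of 0.0602, 0.0752 and 0.0526, and 191.4, 186.3 and 194.1 in hSRY-ON, with detection p-values of 0.0840, 0.0388 and 0.0401. The probe was thus detected on 0 of 3 hSRY-OFF and 2 of 3 hSRY-ON arrays, although the intensities of the groups overlap. It was not tested, having been detected on fewer than 3 arrays. Detection is set against each array's own negative controls, and the dimmest signal called detected was 190.9 to 202.5 on the hSRY-OFF arrays and 183.9 to 197.0 on the hSRY-ON arrays.

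The breakdown enzyme Maob had the largest estimate of the set. Its detected probe (ILMN_2719069) read 7.96, 8.15 and 8.02 in hSRY-OFF and 7.69, 8.0 and 7.92 in hSRY-ON. The hSRY-ON values were mostly the lower ones, with hSRY-ON array 1 the lowest, but hSRY-ON array 2 exceeded hSRY-OFF array 1. From 8.04 ± 0.10 to 7.87 ± 0.16, the log2 fold change was -0.17 (SE 0.11, interval -0.43 to 0.08) with an adjusted p of 0.401, short of the threshold. In the deposited intensities, before any correction, the groups did not overlap, with 438.9, 429.4 and 400.6 in hSRY-OFF and 362.2, 392.2 and 379.4 in hSRY-ON, while the corrected and normalized values overlap. The estimate stayed negative under all 16 alternatives of processing or of leaving out an array, between -0.24 and -0.08, with adjusted p from 0.313 to 0.713. The second Maob probe (ILMN_1258219) was below background on all 6 arrays, with detection p-values from 0.496 to 0.845, and offers no check.

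Of the transporters, Slc6a3 could be tested. It read 9.19, 9.08 and 9.03 in hSRY-OFF and 9.29, 9.12 and 9.11 in hSRY-ON. In both groups array 1 was the highest and array 3 the lowest, and the 2 groups interleaved. The log2 fold change of 0.07 (SE 0.09, interval -0.14 to 0.28, adjusted p 0.693), from 9.10 ± 0.08 to 9.17 ± 0.10, had the narrowest interval of the set. It was positive in every alternative, between 0.01 and 0.12.

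Slc18a2 was close to background. Its intensity was 204.3, 162.6 and 169.1 in hSRY-OFF and 190.9, 158.1 and 164.9 in hSRY-ON, and only hSRY-OFF array 1 reached detection, at a detection p-value of 0.0451. In each genotype array 1 stood above the other arrays, with normalized values of 5.47 against 4.71 and 4.88 in hSRY-OFF and 5.30 against 4.71 and 4.75 in hSRY-ON. No level of the vesicular transporter could be set for the other 5 arrays beyond not being above background.

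**Figure D3:**
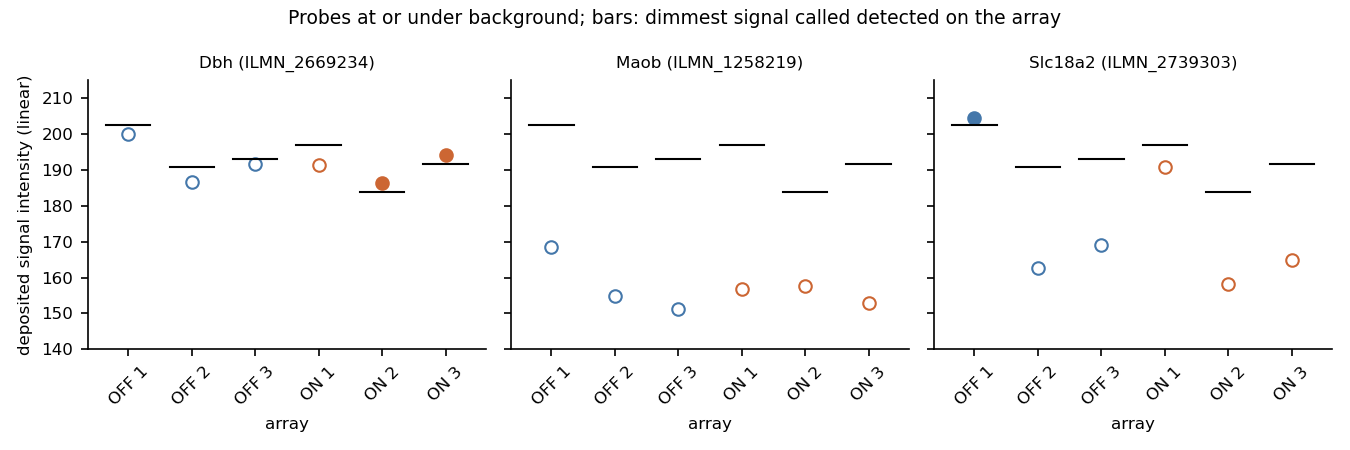
Deposited signal intensity (vertical axis, linear and not starting at 0) of the 3 probes that were not tested, on each of the 6 arrays; the horizontal bars mark the dimmest signal called detected on that array, and filled points were detected. Dbh lies beside the bars on all arrays, the second Maob probe lies under them throughout, and Slc18a2 rises to the bar on array 1 of hSRY-OFF alone.

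Neither dopamine receptor of the striatum passed the test. Drd1a, the D1 receptor of the direct pathway, read 8.72, 8.42 and 8.53 in hSRY-OFF and 8.79, 8.66 and 8.36 in hSRY-ON, so that hSRY-ON supplied both the highest and the lowest array. The log2 fold change was 0.04 (SE 0.13, interval -0.27 to 0.36, adjusted p 0.888), from 8.56 ± 0.15 to 8.60 ± 0.22. Its standard error was the largest of the set.

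Drd2, the D2 receptor of the indirect pathway and the autoreceptor of dopamine neurons, read 7.72, 7.49 and 7.74 in hSRY-OFF and 7.65, 7.58 and 7.56 in hSRY-ON. All hSRY-ON values fell inside the span of the hSRY-OFF values. The log2 fold change was -0.05 (SE 0.09, interval -0.27 to 0.17, adjusted p 0.795), from 7.65 ± 0.13 to 7.60 ± 0.05.

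Nr4a2, which dopamine neurons require and which cortical neurons also express, read 8.24, 8.07 and 7.97 in hSRY-OFF and 8.09, 8.16 and 7.76 in hSRY-ON. The lowest value was that of hSRY-ON array 3, the array that stood apart, and the remaining 5 were mixed. The log2 fold change was -0.09 (SE 0.13, interval -0.40 to 0.22, adjusted p 0.737), from 8.09 ± 0.14 to 8.0 ± 0.21. Without hSRY-ON array 3 its sign turned, to 0.03 (adjusted p 0.897).

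**Figure D4:**
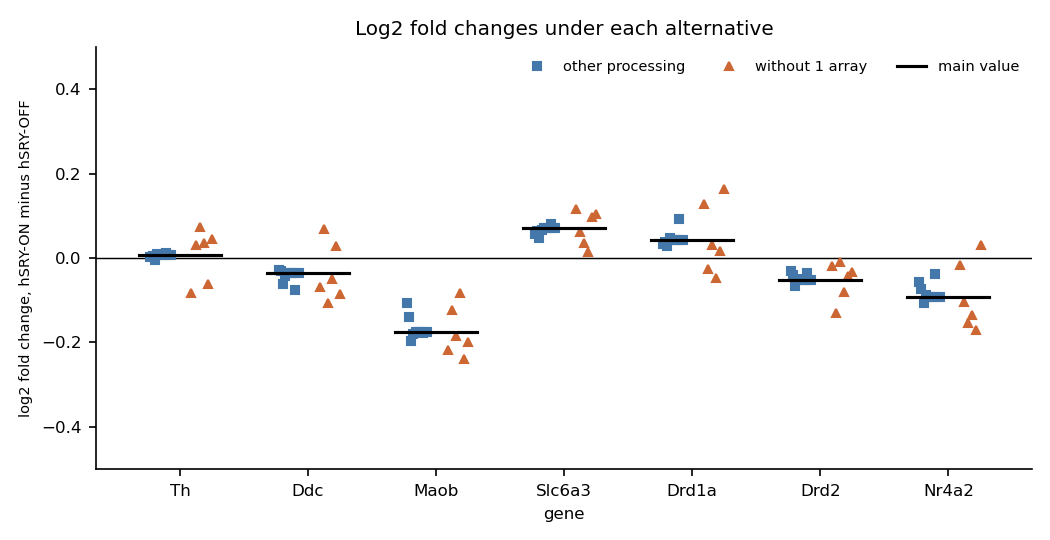
Log2 fold change of the 7 tested probes (vertical axis) under the main processing (black line), under 10 other settings of background correction, normalization, filter or model (blue squares) and without each of the 6 arrays in turn (orange triangles). All values lie between -0.24 and 0.16, Maob and Drd2 stay below 0 and Slc6a3 above it, and Th, Ddc, Drd1a and Nr4a2 fall on both sides.

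The members did not move as a block across the arrays. Among the 21 pairs of tested probes, Pearson's r over the 6 arrays was positive in 10 and negative in 11, from -0.827 for Maob with Slc6a3 to 0.749 for Slc6a3 with Drd1a. Such values over 6 arrays describe these arrays only, and all probes share each array's brightness and normalization. For 5 of the 10 probes (Slc6a3, Slc18a2, Drd1a, Drd2 and Nr4a2) the deposited intensity was highest on array 1 in both genotypes, and after normalization this remained for 3 (Slc6a3, Slc18a2 and Drd1a). Array 1 also had the highest median intensity in each genotype, 219.8 in hSRY-OFF and 210.4 in hSRY-ON, and its part in the pattern was not tested.

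The probes of other genes most like Maob over the 6 arrays were those of Phf19 (r 0.992), Spr (r 0.989) and Slc25a11 (r 0.984). Spr encodes sepiapterin reductase, which makes the cofactor of tyrosine hydroxylase, and its log2 fold change was -0.14 (adjusted p 0.465). The probes most like Th were those of Tsen34 (r 0.988), LOC675228 (r 0.987) and Dync1h1 (r 0.980). These are the highest of 14215 probes compared and carry no test.

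The surrounding pathway was described through lists of 53 further genes on the array for synthesis, transport, breakdown, receptors and neuron identity, of which 38 could be tested (1 probe per gene, the brightest). Of these, 2 rose and 0 fell at an adjusted p under 0.05 (5.26%, against 2.39% of all genes tested this way), and 6 (15.8%, against 21.5%) had an unadjusted p under 0.05. These lists and those below were drawn up with earlier results of these data known. The shares therefore describe the listed genes and give no support to a change of a pathway or cell type. Their median log2 fold change was -0.03, with 16 positive and 22 negative.

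One of the risen genes was Sult1a1, a general phenol sulfotransferase placed in the breakdown list. Its part in catecholamine breakdown was not tested. It read 7.73, 7.93 and 7.81 in hSRY-OFF and 9.42, 9.61 and 9.64 in hSRY-ON, with no overlap, and its log2 fold change was 1.73 at an adjusted p of 0.0054 (SE 0.10). The other was Gata2, a zinc-finger transcription factor of the noradrenaline and serotonin neuron lists that also acts in GABAergic and blood cell lineages. It read 7.43, 7.25 and 7.43 in hSRY-OFF and 8.17, 7.94 and 8.07 in hSRY-ON, which is 0.69 higher on the log2 scale (SE 0.10, adjusted p 0.0294) and again without overlap. When 1 array was left out the rises were 0.63 to 0.75 for Gata2 and 1.68 to 1.80 for Sult1a1, and without background correction they were 0.40 (adjusted p 0.0022) and 1.26 (adjusted p 2.02e-07). Without any array other than hSRY-ON array 3 at most 1 probe was called in all. The adjusted p of Gata2 was 0.0614 to 0.110 when any array but hSRY-ON array 3 was left out, and that of Sult1a1 was 0.0505 and 0.0696 after removal of array 1 or array 3 of hSRY-OFF, and 0.0502 after removal of array 2 of hSRY-ON, with the direction kept throughout.

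In synthesis and its tetrahydrobiopterin cofactor, 0 of 8 tested genes passed the adjusted threshold and the median log2 fold change was -0.05, which became -0.14 after removal of array 3 of hSRY-ON and 0.0033 after removal of its array 2. The lowest p was that of Gchfr, the feedback regulator of GTP cyclohydrolase, at -0.48 (SE 0.13, adjusted p 0.107), but its second probe read -0.0059 (adjusted p 0.987). Without hSRY-ON array 3 the first Gchfr probe read -0.62 and passed (adjusted p 0.0353), and without background correction it read -0.15 (adjusted p 0.197). For Gch1, which encodes GTP cyclohydrolase, the brightest probe read -0.05 (adjusted p 0.916) and a second probe -0.34 (adjusted p 0.132). Pcbd1 and Pcbd2, which regenerate the cofactor, read 0.26 (adjusted p 0.308) and -0.22 (adjusted p 0.289). In transport, the noradrenaline transporter Slc6a2 read -0.07 (adjusted p 0.810) and the monoamine transporter Slc29a4 -0.11 (adjusted p 0.564), and 0 of these 2 passed, with 0 of 2 at an unadjusted p under 0.05. Their median of -0.09 ran from -0.17 without hSRY-OFF array 2 to -0.03 without hSRY-ON array 2, and 1 of the 2 turned positive without hSRY-OFF array 1. In breakdown, Sult1a1 alone of 5 tested genes passed, with Aldh2, an aldehyde dehydrogenase, at -0.18 (SE 0.07, adjusted p 0.230), and Maoa and Aldh1a1 were below background on all 6 arrays.

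By their brightest probe, all 6 tested adrenergic receptors had a negative log2 fold change, also under median scaling and cyclic loess, and 0 passed the adjusted threshold, with 1 at an unadjusted p under 0.05. Their median was -0.15, with -0.05 without background correction, -0.07 without hSRY-OFF array 1 and -0.25 without hSRY-OFF array 3. When 1 array was left out, up to 2 of the 6 turned positive, and a second probe of Adra2c, an inhibitory alpha-2 receptor, read 0.09 (adjusted p 0.639) where the brightest read -0.14 (adjusted p 0.600). Adrb1, the beta-1 receptor, came nearest, with 6.66, 6.42 and 6.66 in hSRY-OFF against 6.20, 6.19 and 6.11 in hSRY-ON, or -0.41 on the log2 scale (SE 0.09, adjusted p 0.0725). Its adjusted p was 0.0392 with the stricter detection filter and 0.0684 to 0.186 under the other alternatives, and the size shrank to -0.24 with an offset of 50 and to -0.15 without background correction. Its groups did not overlap, as was the case for 29% of all genes tested by 1 probe. Of the remaining dopamine receptors Drd4 read 0.19 (SE 0.27, adjusted p 0.734) and has no settled direction, at -0.02 after removal of array 2 of hSRY-ON but 0.47 after removal of its array 1, and Drd3 and Drd5 were below background.

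Among 10 tested genes of dopamine neuron identity, 7 were positive and 3 negative, and 0 passed the adjusted threshold, with 1 at an unadjusted p under 0.05. Their median was 0.15, with 0.07 without hSRY-ON array 1, 0.26 without hSRY-OFF array 2 and 0.08 without background correction. The floor plate factor Foxa1 read 0.44 (adjusted p 0.356), with hSRY-ON array 1 at 7.34 and the other hSRY-ON arrays at 6.53 and 6.59 against a mean of 6.38 in hSRY-OFF. Lmx1a, another floor plate factor, read 0.22 (adjusted p 0.375), and the midbrain and hindbrain factor En2 read -0.42 (adjusted p 0.324). Of the hSRY-OFF values of En2, 9.20 and 9.34 lay above and 8.45 below all hSRY-ON values, which were 8.55 to 8.61. Kcnj6, a potassium channel subunit of dopamine neurons, read -0.56 (SE 0.16, adjusted p 0.109) and was detected on the 3 hSRY-OFF arrays only. It is the gene of the list with an unadjusted p under 0.05, and it entered the test only through the group in which it was higher, so its difference gives no support to the list. Pitx3, Lmx1b and Foxa2 were below background on all arrays. Among 7 tested genes of noradrenaline neuron identity, Gata2 rose and the others did not pass, with Phox2a, the factor that sets up this cell type, at 0.26 (SE 0.13, adjusted p 0.294). The hSRY-OFF values of Phox2a were 6.02, 5.61 and 5.95 against 6.01, 6.21 and 6.12 in hSRY-ON, so that its difference rests in part on hSRY-OFF array 2. Hand2 was below background on all 6 arrays.

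**Figure D5:**
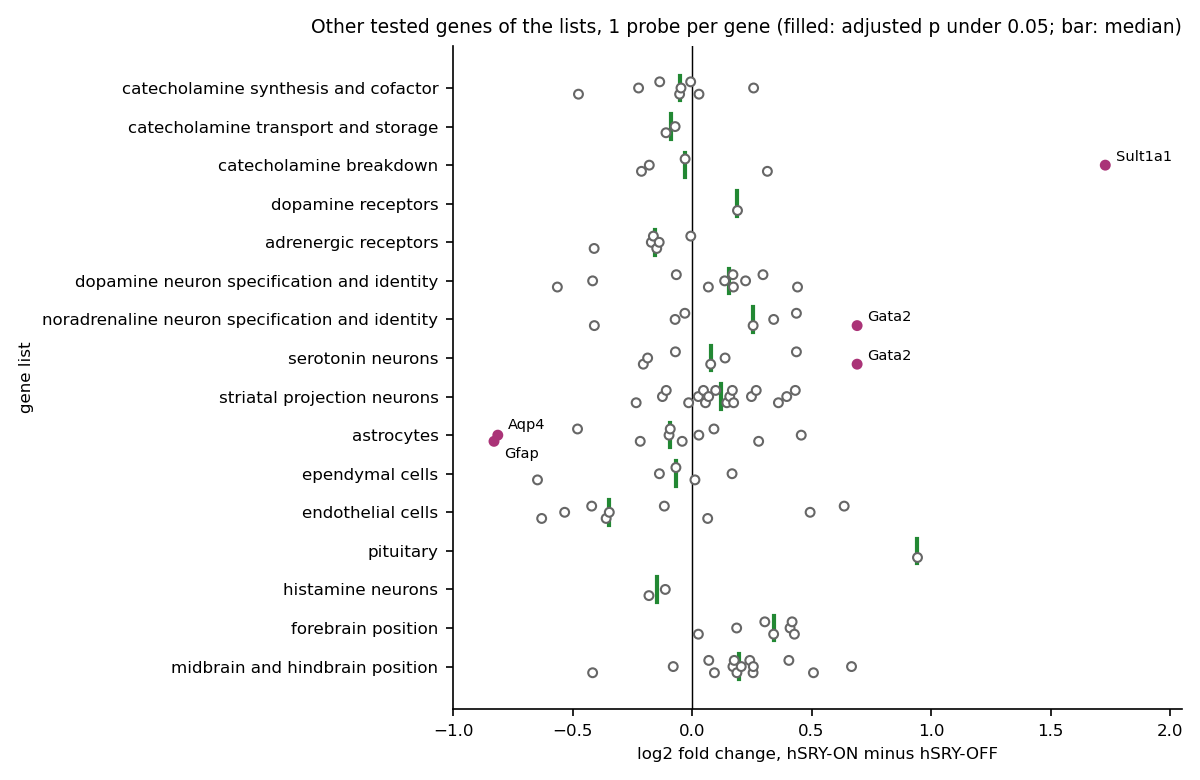
Log2 fold change, hSRY-ON minus hSRY-OFF (horizontal axis), of each tested gene in the lists of the pathway, of neighbouring cell types and of brain position (vertical axis), without the 9 genes of the set; filled points passed an adjusted p of 0.05 and green bars are list medians. In the 7 pathway lists at the top only Sult1a1 and Gata2 are filled, and Gata2 appears again among the serotonin neuron genes.

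Cell types and regions that can hold the same transcripts were set beside these values. Across these lists, 70 further genes were tested and 2 passed the adjusted threshold (2.86%, against 2.39% of all genes), while 23 (32.9%, against 21.5%) had an unadjusted p under 0.05 and 27 (38.6%, against 29%) had groups that did not overlap. Both belong to astrocytes, where Maob is expressed. Aqp4, the astrocytic water channel, fell from 11.29 ± 0.12 to 10.48 ± 0.15 (log2 fold change -0.81, SE 0.11, adjusted p 0.0275), and Gfap, the intermediate filament of astrocytes, fell from 8.32 ± 0.21 to 7.50 ± 0.04 (-0.83, SE 0.12, adjusted p 0.0308). Without background correction they read -0.75 and -0.51. When 1 array was left out Aqp4 lay between -0.90 and -0.76 and Gfap between -0.95 and -0.76, and in those fits, hSRY-ON array 3 excepted, neither passed (adjusted p 0.0614 to 0.110 for Aqp4 and 0.0732 to 0.110 for Gfap). The other 9 tested astrocyte genes did not pass, and 4 of the 11 were positive and 7 negative. Without background correction and with a trend and robust prior 5 of the 11 passed. Beside Aqp4 and Gfap these were Aldh1l1, a folate enzyme and astrocyte marker, which was lower (-0.48 here, adjusted p 0.0834), and Gjb6, a gap junction protein, and Aldoc, a glycolytic enzyme, which were higher (0.46 and 0.28 here, with adjusted p 0.102 and 0.105). The summed signal of the list was 54250 to 55700 in hSRY-OFF and 52010 to 58920 in hSRY-ON. Glul and S100b were below background on all 6 arrays. The part of astrocytes in the value of Maob was not tested.

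Serotonin neurons, which also use Ddc, Slc18a2 and Maob, had 7 tested genes with a median of 0.08 (-0.02 without hSRY-OFF array 3), of which Gata2 alone passed, and Tph2, the serotonin-making hydroxylase, read -0.20 (adjusted p 0.408). The 18 tested genes of striatal projection neurons, the cells that bear Drd1a and Drd2, had a median of 0.12 (0.08 without background correction), with 14 positive and 4 negative, and 0 passed the adjusted threshold in limma, with 4 at an unadjusted p under 0.05. The number that passed was 3 without background correction and with a trend and robust prior. By the brightest probe of each gene the lowest p was that of Bcl11b, a striatal and cortical transcription factor, at 0.40 (SE 0.09, adjusted p 0.0672). A dimmer probe of Foxp2, a transcription factor of the same neurons, read 0.62 (adjusted p 0.0616). In the other direction, a dimmer probe of another gene of the list read -0.33 (adjusted p 0.157), where the brightest probe of that gene read 0.16 (adjusted p 0.405). Genes of forebrain position had a median of 0.34 (0.21 without hSRY-OFF array 2 and 0.18 without background correction), with 7 of 7 positive (5 of 6 tested without hSRY-OFF array 2 and without array 1 or 2 of hSRY-ON), and those of midbrain and hindbrain position a median of 0.20 (0.09 without background correction), with 12 of 14 positive, and 0 genes of either list passed the adjusted threshold, with 3 and 2 at an unadjusted p under 0.05. The forebrain median is the value of Nkx2-1, a dim probe detected on 3 arrays (adjusted p 0.321). With detection p under 0.01 required on all arrays it was 0.41, with 5 of 5 positive. For the pituitary, where Drd2 is abundant, 9 of 10 genes were below background on all arrays and Gh, growth hormone, was detected on 3, at 0.94 (SE 0.40, adjusted p 0.236). Gh read 1.42 and passed without hSRY-ON array 3 (adjusted p 0.0363), read 0.52 with an offset of 50 and 0.29 without background correction, and was detected on too few arrays to be tested when array 1 of either group or array 2 of hSRY-ON was left out.

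For endothelial cells 0 of 9 tested genes passed and 7 had an unadjusted p under 0.05, 5 of them lower and 2 higher, where 21.5% of all genes had. Cldn5, a tight junction protein, read -0.42 (adjusted p 0.126), while Ly6c1, a surface antigen of brain vessels, read 0.64 (adjusted p 0.0513). The number that passed became 6 without background correction, 6 with a trend and robust prior and 3 without hSRY-ON array 3. The summed linear signal of the list, which the brightest probes dominate, was 10220 to 10420 in hSRY-OFF and 8420 to 9338 in hSRY-ON. The part of vessels in the values of the set was not tested.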

How the data were processed

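Total RNA of brain was read on 6 Illumina MouseRef-8 v2.0 arrays, 3 per genotype, grouped by the labels. The authors deposited a mean bead signal intensity per probe and array, linear and not normalized between arrays, with a detection p-value against the negative-control beads deposited beside it. Background correction by the authors is not given in the sources used here. Their methods name TCC for normalization and testing, and the labels name limma. TCC was not used.

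Intensities were corrected in R 4.3.3 with limma 3.58.1 (normexp with negative controls inferred from the detection p-values, offset 16), quantile normalized and put on the log2 scale. Probes detected at p under 0.05 on at least 3 arrays, 14215 in all, were fitted with lmFit and eBayes with the genotype as the only term, two-sided, with Benjamini-Hochberg adjustment over all of them and a call at 0.05. The number of arrays limits the precision. The methods give 3 mice per genotype, although the labels do not name the animals, and p-values measure the spread between these samples. The fit was also run on simulated normal values drawn at each tested probe's mean and spread. Background correction, normalization and the detection filter were not part of that run. Alternatives were other background corrections, normalizations, filters, prior and weights, 1 probe per gene, the replicate number as a block and each array left out in turn. Lists were summarised by the brightest probe of each gene, by counts and medians. All member probes are reported. Of the other list genes, those called and otherwise up to 4 of a list with the lowest p could be named. The members, lists and alternatives were chosen with earlier results of these data known. Probe sequences were not used here. Figures were drawn with matplotlib 3.10.9.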

Additional observations from a re-analysis of the deposited data

How the results depend on the processing

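For the 7 tested probes the 16 alternatives gave 112 values, and 0 had an adjusted p under 0.05. Over all probes tested the number called was 308 and ranged from 0 to 1447 over the same alternatives, with 0 or 1 called when any array but hSRY-ON array 3 was left out and 417 without that array, so 0 calls in the set says little in those fits. With 1447 calls in all (a trend and robust prior) and 1317 (no background correction) the set still had 0. The sign turned in 8 of the 112 values. Th was -0.0057 with median scaling and ran from -0.084 to 0.074 when 1 array was left out, Ddc from -0.11 to 0.069, Drd1a from -0.048 to 0.16 and Nr4a2 from -0.17 to 0.030, so these 4 genes have no settled direction, and the cause was not tested. With no filter on dim probes, Dbh read 0.05 (adjusted p 0.872), Slc18a2 -0.10 (adjusted p 0.901) and the second Maob probe 0.00089 (adjusted p 0.998). The difference of 0.33 in probes detected per array became 0 at the stricter detection p-value and ran from 0.17 to 0.67 when 1 array was left out.

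The count of called pathway genes was 2 and ran from 0 to 3 when 1 array was left out, and 0 of the set's own probes were called in any of these fits. The count of 2 in the neighbouring lists became 15 without background correction, 8 with normexp on the signals and an offset of 50, 8 when every array had to pass the stricter detection p-value of 0.01, 15 with a trend and robust prior and 4 with array quality weights, and ran from 0 to 8 when 1 array was left out. With the replicate number as a block, 0 probes of the set, 0 pathway genes and 0 genes of the neighbouring lists were called, and 0 of all 14215 probes. Deviations of arrays with the same number correlated by 0.0251 to 0.0404, each array best with its own number, which is too weak to take the numbers as pairs. The 3 arrays per group and, for Dbh and Slc18a2, signals at background are what limit these values.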
